A study of Sus scrofa with 8 samples.

Results

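Tight junctions are belts of strand-forming proteins that seal the space between neighbouring cells. In the testis they join Sertoli cells near the base of the seminiferous tubule, where they form the main part of the blood-testis barrier and part the dividing spermatogonia from the later germ cells. The strands are built from claudins and occludin (OCLN), together with the adhesion molecule JAM-A (gene F11R), while scaffold proteins such as cingulin (CGN), MPDZ and MAGI1 tie them to the cytoskeleton and to signalling proteins. Tight junctions also seal ducts and the endothelium of blood vessels, so that a piece of testis holds these transcripts from several cell types.

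The 10 genes OCLN, F11R, CGN, MPDZ, MAGI1, CLDN1, CLDN3, CLDN4, CLDN5 and CLDN11 were looked up on a porcine Agilent array with 43603 probes, of which 3064 had a gene name. Probes were taken if their RefSeq accession led to one of these genes, or if the study's list of probes with P under 0.05 between the diets gave them that name. This found 9 probes of 6 genes. No probe was found for CLDN3, CLDN4, CLDN5 and CLDN11, and these genes were not analysed here. Of the 9 probes, 8 were in the study's list, which was chosen by measured values of the same 8 boars. The diet differences of these 8 probes are therefore given as a description, and counts of them from limma are set beside those of all probes without being read as a test. The ninth, the F11R probe A_72_P238977, came in by its accession alone, and OCLN was named by both sources. Among the probes inside the list CLDN1 had the smallest difference between the diet means, -0.23 on the log2 scale, and the F11R probe outside it had -0.03.

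Testis RNA of 8 F0 boars of the Large White breed was hybridized with a single dye (Cy3), 1 boar per array. The boars m_9597, m_9599, m_9499 and m_9527 were fed a supplemented diet from month 1 to month 10 of age, a standard diet to which methionine, choline, betaine, folate and the vitamins B6 and B12 had been added as methylating micronutrients. The boars m_9598, m_9600, m_9502 and m_9528 received the standard diet alone over the same months and are the controls. The comparison asks whether this diet was accompanied by different transcript levels in the testis. A litter of 4 full brothers, 2 on each diet, gave the supplemented boars m_9597 and m_9599 and the controls m_9598 and m_9600, and the remaining 4 boars came from the 2 other litters of the study, without a statement of which boar came from which. The brothers were on slide 1 and the others on slide 2, so that litter and slide cannot be told apart. Supplemented boars were at places 1 and 3 of a slide and controls at places 2 and 4, so that place on the slide and diet cannot be told apart either. The median spot intensity was between 108 and 192.5 over the arrays, 4.91 to 7.40 times the local background, and no spot was saturated. With 4 arrays per diet the precision is limited.

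All 9 probes passed the filter on dim probes, which kept the 36982 probes found in 2 or more boars of either diet. In 8 of them every array was well above background. The exception was CLDN1 (A_72_P253557), which was well above background on 4 of 4 control arrays and on 1 of 4 arrays of the supplemented diet. Each probe had 1 spot per array, and none of these spots carried an outlier flag. Values are log2 signals after quantile normalization without background subtraction, which understates differences of dim probes. The level of one probe says nothing about that of another, since probes differ in how well they bind.

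Among the strand proteins, the OCLN probe (A_72_P292669) was lower on the supplemented diet. Its log2 signal was 7.40, 7.53, 6.88 and 6.78 in the supplemented boars m_9597, m_9599, m_9499 and m_9527, and 8.10, 7.81, 7.28 and 8.24 in the control boars m_9598, m_9600, m_9502 and m_9528. Only the control boar m_9502 lay among the supplemented boars, and the lowest values were those of the supplemented boars outside the litter of brothers. The means were 7.15 ± 0.37 (SD, n = 4) and 7.86 ± 0.42 (SD, n = 4), a difference of -0.71 (standard error 0.25), or 1.64-fold. This was the largest difference of the 9 probes in size. In a tissue piece, fewer cells of a type and less RNA per cell cannot be told apart. This holds for each probe described here.

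CLDN1, a claudin of many epithelia, was measured by a probe close to background. Its log2 signal was 5.45, 5.46, 5.43 and 5.34 in the supplemented boars and 5.55, 5.84, 5.75 and 5.46 in the controls, in the same order of boars. The control boar m_9528 lay level with the highest supplemented boar, and the supplemented boars were close together. The means were 5.42 ± 0.06 (SD, n = 4) and 5.65 ± 0.17 (SD, n = 4). The difference of -0.23 (standard error 0.14) came from raw intensities between 33.0 and 58.0, and after subtraction of the background, with each array scaled to its 75th percentile, it was -0.70. With normexp background correction it was -0.14.

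F11R was measured by a pair of probes. The first (A_72_P049411) read 9.34, 8.96, 9.46 and 9.11 in the supplemented boars and 9.60, 9.64, 9.42 and 9.68 in the controls. The diets overlapped in 1 boar on each side, since the supplemented boar m_9499 was above the control boar m_9502. Its means were 9.22 ± 0.22 (SD, n = 4) and 9.58 ± 0.12 (SD, n = 4), with a difference of -0.37 (standard error 0.15). The second (A_72_P238977), the probe that the study's list does not hold, read 6.08, 5.73, 6.01 and 5.67 in the supplemented boars and 5.92, 5.54, 5.87 and 6.30 in the controls. Both ends of its range belonged to control boars. It was a dim probe, with raw intensities between 41 and 98, against 386 to 1074.5 in the first. A difference may therefore be understated in it, though it was well above background on all 8 arrays. Here the diets could be tested, and the difference was -0.03 (standard error 0.19, 95% confidence interval -0.46 to 0.39, adjusted p = 0.967 from limma over all present probes). Whether the 2 probes differ was not tested. The sign of the second was not stable, as it was 0.18 in the brothers and -0.25 in the other boars.

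Of the scaffold genes, CGN, MPDZ and MAGI1 had the higher mean on the supplemented diet in each probe, all of them probes of the study's list. CGN (A_72_P150466), whose protein links the junction to actin and myosin, read 9.37, 9.20, 9.29 and 9.32 in the supplemented boars and 9.16, 8.89, 8.68 and 8.87 in the controls. It was the one probe of the 9 whose values in the 2 diets did not overlap, the lowest supplemented boar (m_9599) being above the highest control (m_9598). This is the case in 1.13% of all present probes, and since the probe had been chosen on this contrast nothing is read from it. The means were 9.29 ± 0.07 (SD, n = 4) and 8.90 ± 0.20 (SD, n = 4), a difference of 0.39 (standard error 0.14), or 1.31-fold. With array weights the difference was 0.25.

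MPDZ (A_72_P352328) codes for a protein with many PDZ domains that binds claudins and JAM-A. Its probe read 10.49, 10.35 and 10.41 in the supplemented boars m_9597, m_9599 and m_9499, slightly above these in m_9527, and 10.26, 10.36, 10.13 and 9.99 in the controls. Boar m_9600 was just above the lowest supplemented boar, and the other controls were below all of them. The difference between the means of 10.44 ± 0.07 (SD, n = 4) and 10.18 ± 0.16 (SD, n = 4) was 0.25 (standard error 0.14), or 1.19-fold. It was 0.11 in the brothers and 0.40 in the other boars.

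MAGI1, a membrane-associated guanylate kinase with WW and PDZ domains, was measured by 3 probes. A_72_P101851 read 10.21, 10.18, 9.81 and 10.16 in the supplemented boars and 9.48, 10.03, 9.40 and 9.20 in the controls. A_72_P169136 read 9.53, 9.60, 9.23 and 9.72 against 8.92, 9.32, 9.15 and 8.68. A_72_P231307 read 9.72, 9.88, 9.62 and 9.90 against 9.05, 9.71, 9.31 and 8.97. In each of the 3 probes the control boar m_9600 was the highest control and lay above at least 1 supplemented boar, boar m_9499 was the lowest supplemented boar and boar m_9528 the lowest of all 8. The differences were 0.56 (standard error 0.20), 0.50 (standard error 0.18) and 0.52 (standard error 0.19), or 1.48-fold, 1.42-fold and 1.43-fold. Without boar m_9600 they were 0.73, 0.60 and 0.67, and without boar m_9528 they were 0.45, 0.39 and 0.42.

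**Figure D1:**
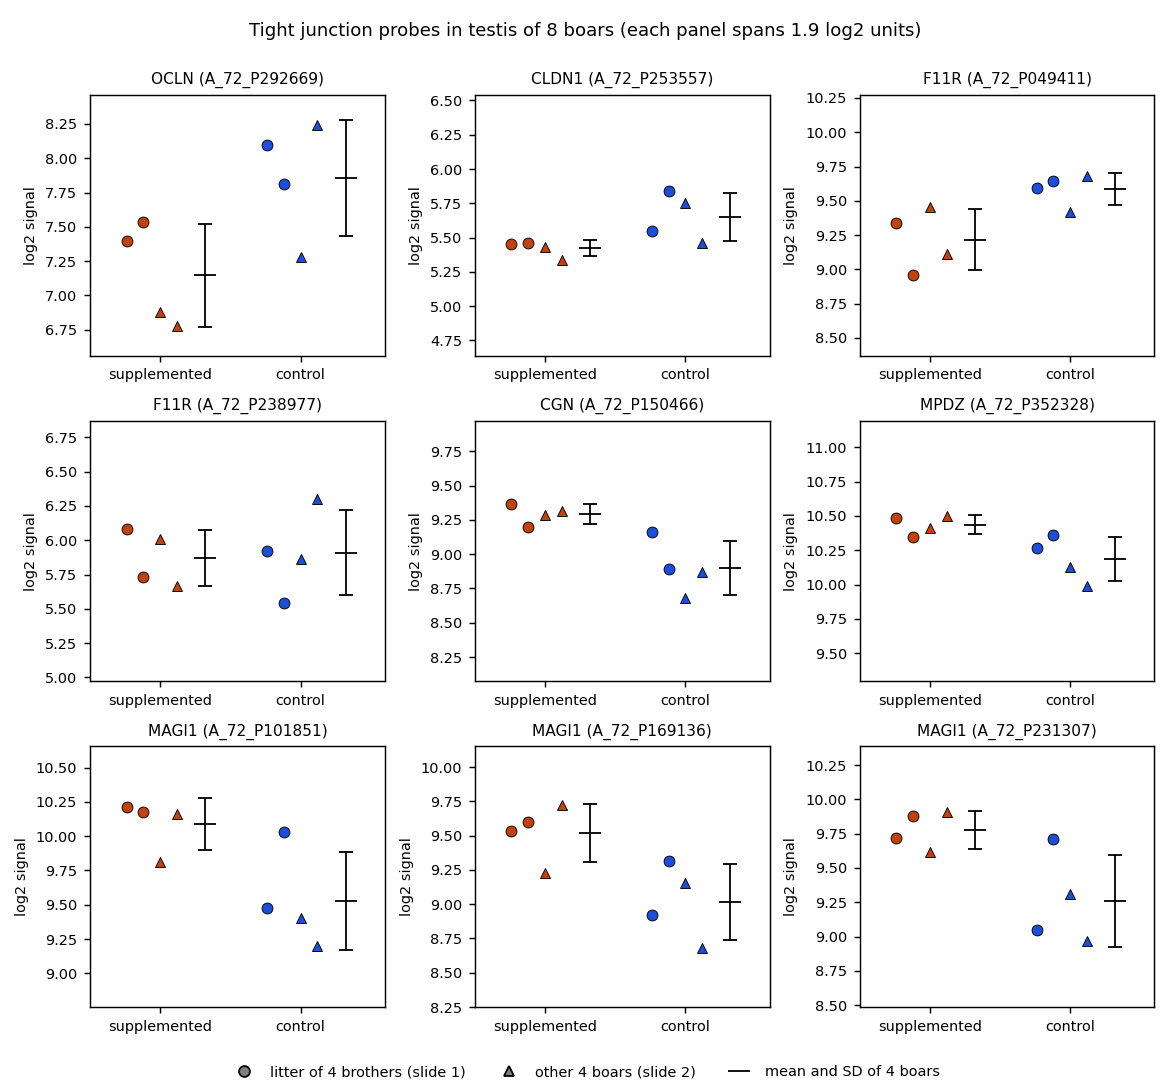
Log2 signal of the 9 probes in the supplemented and the control diet, with circles for the 4 brothers, triangles for the other 4 boars and bars for the mean and SD of 4 boars. OCLN, CLDN1 and the first F11R probe have lower means on the supplemented diet, CGN, MPDZ and MAGI1 have higher means, and CGN is the one panel in which the diets do not overlap.

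The probes of the study's list are 60 bases long, and the study's supplement gives their sequences. The first 30 bases of the 3 MAGI1 probes are shown, since probes of one transcript may overlap, and those of OCLN and CGN as the probes with the largest difference in size and with diets that do not overlap. No run longer than 8 bases is shared between any 2 of the 8 probes with a sequence, so that the MAGI1 probes cover different stretches. No probe was aligned to its gene, and 7 of the 9 carry their gene name by the study's list alone.
MAGI1 A_72_P101851: ctggaggttttcccagcagaaggctaaagc
MAGI1 A_72_P169136: gtccttgatccagtgtttctattcatctat
MAGI1 A_72_P231307: aggaaaaatagtactaccctatccagtatg
OCLN A_72_P292669: ctgacccaggaggccaaacctttctggtca
CGN A_72_P150466: aagaggtaacggagatgattcatctctctt

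As follows from their choice, limma gave 6 of the 9 under 0.05 between the diets before adjustment, against 1.86% of all present probes. Of these, 4 had the higher mean under supplementation and 2 the lower, against 0.938% and 0.925% of all present probes. The 4 higher ones are CGN and the 3 MAGI1 probes and the 2 lower ones OCLN and the first F11R probe. Nothing is read from this count. After Benjamini-Hochberg adjustment limma gave 0 of the 9 probes, as it gave 0 (0%) of all 36982, of which 689 were under 0.05 before adjustment and 717 by the ordinary equal-variance test. The median size of the difference was 0.39 over the 9 probes and 0.17 over all present probes.

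The spread between boars of one diet differed between the probes, and choice by a P-value favours a small one. The residual SD was 0.12 for MPDZ and, close to background, 0.13 for CLDN1, which is lower than in all but 5.34% and 6.33% of the present probes, and 0.40 for OCLN, which is higher than in 70.9%. The median over all present probes was 0.296. In 8 of the 9 probes the SD was larger on the control than on the supplemented diet, the exception being the first F11R probe. The same order was found in 67.1% of all present probes. The control boar m_9528 was the highest of the 8 boars in 3 probes and the lowest in 4. These are OCLN and both F11R probes on the high side, and MPDZ and the 3 MAGI1 probes on the low side. The boars farthest from the mean of their diet were m_9600 and m_9528, each in 3 of the 9 probes.

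Each slide held 2 boars of each diet, so that the difference could also be taken separately in the brothers and in the boars of slide 2. It had the same sign in both in the 8 probes of the study's list, which their choice favours, and opposite signs in the second F11R probe, the one not so chosen. Of all present probes 61.1% had the same sign in both. For OCLN it was -0.49 in the brothers and -0.93 in the others, and for CGN it was 0.26 and 0.53. The 3 MAGI1 probes had 0.44, 0.44 and 0.42 in the brothers and 0.69, 0.56 and 0.62 in the others. The first F11R probe had -0.47 and -0.27, and CLDN1 -0.24 and -0.22. The difference was thus smaller in size in the brothers for OCLN, CGN, MPDZ and MAGI1 and larger for the first F11R probe. As an interaction of diet and litter, these values ranged from -0.29 to 0.45 over the 9 probes. By limma 0 of the 9 were under 0.05 for it before adjustment and 0 after, against 738 (2.0%) and 0 (0%) of all present probes. The choice of the probes favours a small interaction, and with 2 boars per diet on a slide only a large one could be found.

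**Figure D2:**
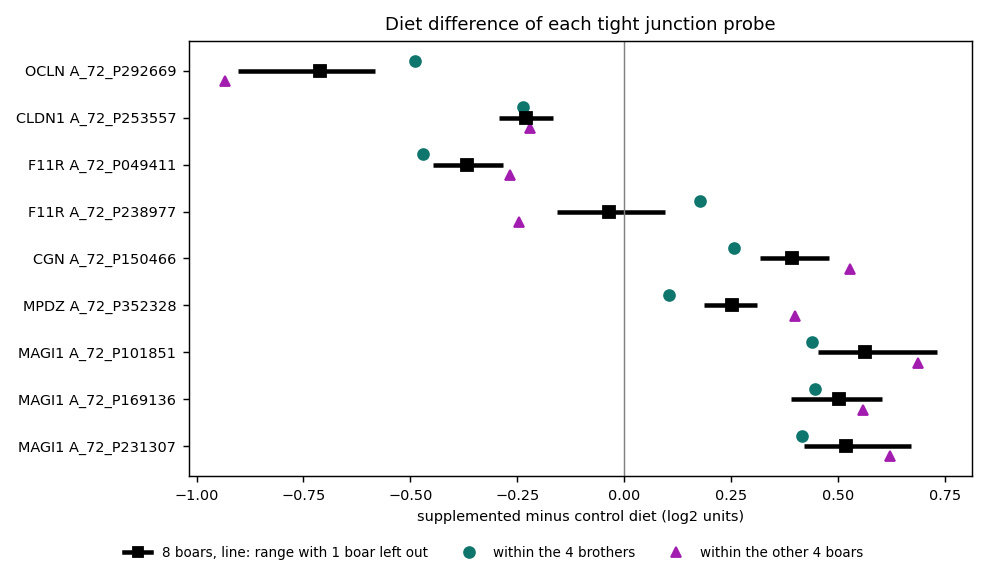
Difference between the diet means (supplemented minus control, log2 units) of the 9 probes, with squares for all 8 boars, black lines for the range with each boar left out in turn, circles for the 4 brothers and triangles for the other 4 boars. The second F11R probe is the one whose line crosses 0, running from -0.16 to 0.10, and the OCLN line runs from -0.90 to -0.58.

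The litter of brothers was compared with the other boars, adjusted for diet. The choice of the probes bears on this too, since a P-value between the diets favours probes with little difference between the litters. Of the 480 probes of the study's list, limma gave 3 under 0.05 before adjustment in this contrast and 0 after, and the median size of the difference was 0.09, against 0.18 over all present probes. OCLN had the largest difference, 0.41 higher in the brothers (standard error 0.23, 95% confidence interval -0.10 to 0.93, adjusted p = 0.648 from limma), with means of 7.71 ± 0.31 (SD, n = 4) and 7.30 ± 0.67 (SD, n = 4). It was 0.65 without boar m_9528 and 0.27 without boar m_9502. Boar m_9528 of the other litters was the highest of all 8 boars, so that the litters overlapped. The MAGI1 probe A_72_P101851 was 0.33 higher in the brothers (standard error 0.17, adjusted p = 0.644 from limma) and 0.20 higher without boar m_9600, while the other MAGI1 probes had 0.15 and 0.14. The remaining probes differed by between -0.14, for the second F11R probe, and 0.12, for CGN. Without boar m_9598 the CGN difference was 0.0347. The litters parted without overlap in 0 of the 9 probes, in 0 of the 480 of the study's list and in 6.18% of all present probes, so that nothing is read from the 0. By limma 0 of the 9 were under 0.05 before adjustment and 0 after, against 2999 (8.11%) and 0 (0%) of all present probes.

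The relation of the genes to each other was taken over the 8 boars from the deviations from the mean of each diet, so that the difference between the diet means does not enter. The choice of the probes by a P-value still bears on these deviations, since it favours small ones. With 1 probe per gene, 15 pairs were computed. Pearson's r was above 0 in 10 and below 0 in 5 of them, with a median of 0.0948. None had an exact permutation p under 0.05 over the 576 orders of the boars within the diets, the smallest adjusted p was 0.859, and the genes were therefore not shown to vary together. The brothers are not independent boars, which these p-values do not take into account. With the means of diet and litter both removed, which keeps the comparison within slides, r was above 0 in 6 and below 0 in 9 of the 15 pairs, with a median of -0.128. For CGN with MAGI1 it went from 0.0948 to -0.674. Only 16 orders of the boars are then left, so that no exact permutation p can be under 0.125.

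The pair with the highest r was MAGI1 (A_72_P101851) and MPDZ, 2 scaffold genes with PDZ domains. Pearson's r was 0.777 (exact permutation p = 0.0799, adjusted p = 0.859) and Spearman's rho 0.595 (exact permutation p = 0.193, adjusted p = 0.861). Without the boars m_9600 and m_9528, the farthest from the median of MAGI1, r was 0.255, and with any 1 boar left out it was 0.548 to 0.886. Leaving out the farthest boars tends to lower r and leaves few boars, so that it cannot be decided whether the relation rests on them. CLDN1 and MAGI1 had an r of 0.669 (exact permutation p = 0.165, adjusted p = 0.859) and a rho of 0.619 (exact permutation p = 0.181, adjusted p = 0.861), with an r of -0.159 without the boars m_9528 and m_9600. CLDN1 and MPDZ had an r of 0.504 (exact permutation p = 0.401, adjusted p = 0.859) and a rho of 0.214 (exact permutation p = 0.573, adjusted p = 0.861), with an r of -0.782 without the same boars. Since CLDN1 was close to background on most arrays of the supplemented diet, nothing is read from its relations. At the lower end stood CGN with CLDN1, with an r of -0.408 (exact permutation p = 0.585, adjusted p = 0.859) and a rho of -0.452 (exact permutation p = 0.424, adjusted p = 0.861), and an r of 0.00998 without the boars m_9598 and m_9502. CLDN1 with OCLN had an r of -0.353 (exact permutation p = 0.530, adjusted p = 0.859) and a rho of -0.238 (exact permutation p = 0.649, adjusted p = 0.861), and MPDZ with OCLN an r of -0.235 (exact permutation p = 0.663, adjusted p = 0.859) and a rho of -0.357 (exact permutation p = 0.424, adjusted p = 0.861). Without the 2 boars m_9528 and m_9600 the last pairs had -0.187 and 0.102. With diet and litter means removed r was -0.878 for CGN with CLDN1, -0.819 for CLDN1 with OCLN and -0.788 for MPDZ with OCLN, and 0.720, 0.641 and 0.588 for the upper 3 pairs in the order given.

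The probes of one gene form a family of 4 pairs. The MAGI1 probes went together in the deviations from the diet means. A_72_P169136 and A_72_P231307 had an r of 0.902 (exact permutation p = 0.00347, adjusted p = 0.0139) and a rho of 0.952 (exact permutation p = 0.00347, adjusted p = 0.0139), with 0.947 without the boars m_9528 and m_9499. A_72_P101851 had an r of 0.844 with A_72_P169136 (exact permutation p = 0.0260, adjusted p = 0.0417) and of 0.879 with A_72_P231307 (exact permutation p = 0.0312, adjusted p = 0.0417). The rho of these pairs was 0.714 (exact permutation p = 0.0833, adjusted p = 0.111) and 0.738 (exact permutation p = 0.0642, adjusted p = 0.111), so that they passed by r alone. Without the boars m_9600 and m_9528 their r was 0.681 and 0.510. With any 1 boar left out the lowest r was 0.603, for A_72_P101851 with A_72_P231307 without boar m_9600, and 0 or 1 of the 3 pairs then passed the adjustment. With diet and litter means removed their lowest r was 0.892, and 0 passed, as 16 orders cannot give a small p. The F11R probes had an r of 0.497 (exact permutation p = 0.172, adjusted p = 0.172) and a rho of 0.595 (exact permutation p = 0.156, adjusted p = 0.156), and 0.450 without the boars m_9599 and m_9499.

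Over all 32 pairs of probes of different genes, the lowest r belonged to the second F11R probe (A_72_P238977) and MAGI1. With A_72_P231307 it was -0.895 (exact permutation p = 0.0139, adjusted p = 0.278) and with A_72_P169136 -0.874 (exact permutation p = 0.0174, adjusted p = 0.278), with a rho of -0.905 in both (exact permutation p = 0.0104, adjusted p = 0.167). Without the boars m_9528 and m_9600 r was -0.730 and -0.681. These are the only 2 of the 32 pairs with an exact permutation p under 0.05, and neither passed the adjustment. With gMedianSignal and arrays scaled by their 75th percentile, their r was -0.690 and -0.599 (exact permutation p = 0.127 and p = 0.170), and with normexp it was -0.801 and -0.821 (exact permutation p = 0.0642 and p = 0.0312). Without boar m_9600 it was -0.834 and -0.805 (exact permutation p = 0.0764 and p = 0.0694). With gProcessedSignal scaled to the 75th percentile r was -0.924 and -0.872 (exact permutation p = 0.0104 and p = 0.0191), so that both were under 0.05 there too. With diet and litter means removed r was -0.902 and -0.913. The call thus depends on the processing and on single boars. These pairs were singled out after their values were seen, and their F11R probe was dim, with raw intensities between 41 and 98. The first F11R probe had an r of -0.359 and -0.565 with the same MAGI1 probes (exact permutation p = 0.281 and p = 0.148).

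**Figure D3:**
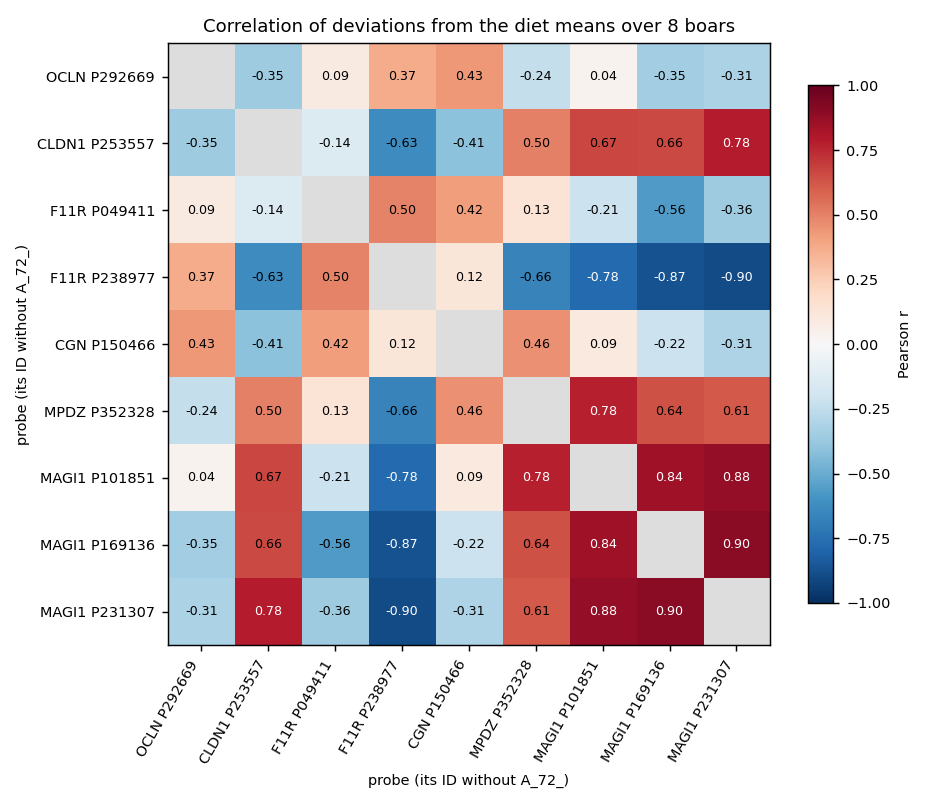
Pearson's r between the deviations of the 9 probes from the diet means over the 8 boars, from -1 in blue to 1 in red. The 3 MAGI1 probes form a red block with r from 0.844 to 0.902, and the second F11R probe is blue against them, down to -0.895.

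For each gene the named genes with the most similar log2 values over the 8 boars were searched among 2909 named probes of other genes, as a description. OCLN was followed most closely by ZFAND5 (r = 0.970), LGALS8 (r = 0.969) and UHRF1BP1L (r = 0.965), and values similar to MAGI1 (A_72_P101851) were found for NFE2L2 (r = 0.974) and OSBPL8 (r = 0.974). MPDZ was closest to AEBP1 (r = 0.968), MAP1B (r = 0.948) and JHDM1D (r = 0.946), and F11R (A_72_P049411) to SNRPF (r = 0.946), PON1 (r = 0.924) and STAMBPL1 (r = 0.923). CGN was closest to SAMD5 (r = 0.877), KLF13 (r = 0.875) and TPST1 (r = 0.864), and CLDN1 to PCOLCE2 (r = 0.881), DLK1 (r = 0.856) and DPP4 (r = 0.853). Of the 18 genes most similar in this search (1 of them is not reported here), 15 are in the study's list. This list makes up 16.2% of the probes searched, and its genes are among those named for each of the 6 genes. Probes chosen for a difference between the same boars resemble each other in that difference, so that these values describe the 8 boars only.

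Of 63 other tight junction genes on a list, 7 had a named probe, with 8 probes, of which 7 were present. Their median diet difference was 0.23, against -0.00285 over all present probes. By limma 1 of the 7 was under 0.05 on the higher side and 1 on the lower, against 0.938% and 0.925% of all present probes, and 0 passed the adjustment. Both are in the study's list too, chosen on this contrast, so that nothing is read from this count. The 5 probes outside the study's list had 0.60 (ARHGEF2), 0.48 (PARD6B), 0.23 and -0.24 (MAGI3, A_72_P049786 and A_72_P316808) and -0.00738 (CLDN2). The CLDN2 probe was close to background, with raw intensities between 31 and 57, and well above it on 7 of 8 arrays. CLDN12, a claudin, read 7.83, 7.90, 8.76 and 7.77 in the supplemented boars m_9597, m_9599, m_9499 and m_9527 and 7.16, 7.66, 7.37 and 6.61 in the control boars m_9598, m_9600, m_9502 and m_9528, without overlap. Its difference was 0.86 (standard error 0.28). The diets did not overlap in this 1 of the 7 probes, against 1.13% of all present probes. Since it was chosen on this contrast, nothing is read from that. CXADR, an adhesion receptor of the same family as JAM-A, read 9.14, 8.72, 8.88 and 8.34 against 9.27, 9.10, 9.23 and 9.52, a difference of -0.51 (standard error 0.19). Only the supplemented boar m_9597 reached into the controls. Like both F11R probes it was highest in the control boar m_9528. In the litter contrast limma gave 0 of the 7 under 0.05 before adjustment, against 8.11% of all present probes.

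Of 30 genes of adherens junctions, gap junctions and desmosomes, 8 had a named probe, with 12 present probes. Their median diet difference was -0.04, with 5 higher and 7 lower, and by limma 0 of the 12 were under 0.05 before adjustment between the diets or the litters, against 1.86% and 8.11% of all present probes. Both ends of this list were probes of the integrin ITGB1. A_72_P223772 had -0.69 (standard error 0.46) and A_72_P195557 0.38 (standard error 0.29), with adjusted p = 0.840 from limma for both.

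Lists of marker genes show which cells the tissue pieces held. Spermatids (5 present probes, brightest PRM1), Leydig cells (13, INSL3), Sertoli cells (14, CLU), peritubular cells (7, DES), spermatogonia (3, UCHL1), endothelium (6, PECAM1), macrophages (6, AIF1), duct and other epithelium (7, EPCAM) and spermatocytes (1, SPO11) were measured, and the brightest probe of each was well above background on all 8 arrays. Red blood cell genes had no named probe and were not analysed here. The median diet difference was 0.02 for spermatids, -0.16 for Leydig cells, 0.01 for Sertoli cells, -0.01 for peritubular cells and 0.29 for spermatogonia. It was -0.05 for endothelium, 0.34 for macrophages, -0.18 for duct epithelium and -0.06 for the spermatocyte probe. Between the diets limma gave 0 of these 62 marker probes under 0.05 before adjustment, against 1.86% of all present probes. In the litter contrast it gave 6 of 62 (9.68%), against 8.11% of all present probes. These were CLU (0.92), KIT (A_72_P180731, 0.89), MYLK (A_72_P208932, 0.64), DES (A_72_P350098, 0.39), AQP5 (-0.52) and CYP19A1 (A_72_P173936, -0.70), each as brothers minus other boars, and 0 of these passed the adjustment in limma, with adjusted p between 0.573 and 0.615. Other present probes of the same genes had 0.54 (KIT), 0.57 and -0.22 (MYLK), -0.17 and 0.12 (DES) and -0.06 (CYP19A1). The named DES probe was close to background, and well above it on 5 of 8 arrays.

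Among these lists, 2 are given by boar beside OCLN and MAGI1, and they were picked after their values were seen. The list of duct and other epithelium had a median deviation from the mean of the 8 boars of -0.18, 0.13, -0.51 and -0.24 in the supplemented boars and 0.28, 0.10, -0.60 and 0.43 in the controls, in the order of boars above. Its lowest control was boar m_9502 and its highest boar m_9528, as for OCLN. The same boars were the lowest and highest control by median deviation in the lists of Leydig cells (-0.15 and 0.36) and of other junctions (-0.19 and 0.13). The brightest probe of the duct list, EPCAM (A_72_P146646), read 9.65, 12.73, 11.36 and 11.35 against 13.34, 12.64, 11.27 and 12.62. The 3 EPCAM probes differed between the diets by -1.19, -1.15 and -0.95. Other probes of this list went the other way, CFTR (A_72_P362363) with 0.37, which is in the study's list, and AQP5 with 0.19. The macrophage list had median deviations of 0.000289, -0.04, 0.18 and 0.46 against -0.42, 0.67, -0.45 and -0.39, and its highest boar, m_9600, was also the highest control in the 3 MAGI1 probes, in MPDZ and in CLDN1. Its brightest probe, AIF1 (A_72_P394883), read 9.33, 9.07, 9.62 and 10.34 against 8.43, 10.43, 9.17 and 8.19. Boar m_9600 was the highest of the 8 in the lists of spermatogonia (0.72), peritubular cells (0.41) and endothelium (0.27) too. The part of these cells in the OCLN and MAGI1 values was not tested.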

How the data were processed

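Testis RNA of 8 boars, 4 on each diet, had been measured on single-dye Agilent arrays, 1 array per boar. The deposited scanner files hold spot and background intensity as read by Feature Extraction, without normalization between arrays. The deposited series table holds log2 values, which the authors made from the median signal, and comparison with the scanner files showed quantile normalization without background subtraction. Here log2 median signals of non-control spots were quantile-normalized and the spots of a probe averaged. A probe counted as present with a signal above 25 and well above background on 2 of 4 arrays of a diet. The median signal of an array was 4.91 to 7.40 times its background, so that probes close to background are imprecise.

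Probes were named by RefSeq accession (2628 of 3239 matched) or by the study's list of probes with P under 0.05. Names, sequences and the membership of probes were used from this list, and none of its values. Where accession and list both named a probe, 39 of 44 names were alike. Diet, litter and their interaction were fitted with limma 3.58.1 in R 4.3.3, with Benjamini-Hochberg adjustment over all present probes. Relations were tested by exact permutation within diets, with Python 3.11.15, numpy 2.4.6 and scipy 1.17.1, and figures drawn with matplotlib 3.10.9. Both tests were tested on simulated data. The genes and lists were chosen with earlier results of these data known.

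Named are all present member probes, from the 2 junction lists those with P under 0.05, in the study's list or with the largest difference on either side, the 3 pairs with the highest and the 3 with the lowest r or an adjusted p under 0.05, the 3 genes most like each member (1 of them is not reported here), and from each marker list the brightest probe and those with P under 0.05. ARHGEF2, PARD6B, MAGI3, CLDN2 and CFTR fall outside this rule and were added after their values were seen. The litter differences of other probes of KIT, MYLK, DES and CYP19A1 were added in the same way. The lists were those of tight junctions, other junctions, Sertoli cells, endothelium, duct epithelium, Leydig cells, spermatogonia, spermatocytes, spermatids, peritubular cells, macrophages and red blood cells. Alternatives changed the signal column, scaling, background correction (normexp, offset 50), filter, test, array weights, litter block, boars used and deviations. Leaving out spots with an outlier flag, and the interaction under the litter alternatives, were added after the data had been seen.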

Additional observations from a re-analysis of the deposited data

Results flagged for a closer look

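In the MAGI1 probe A_72_P101851 the supplemented boar m_9499, with a log2 signal of 9.81, lay apart from the other 3 boars of its diet, which were between 10.16 and 10.21. The same boar was the lowest of its diet in the other MAGI1 probes, at 9.23 in A_72_P169136 and 9.62 in A_72_P231307, without lying apart there. Of 18 groups of 4 boars looked at, 1 had a boar apart, and chance marks about 5% of such groups. The cause was not tested.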

How the results depend on the processing

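The 8 probes of the study's list kept the sign of their diet difference in the alternatives run, which their choice on this contrast favours, and CLDN1 went from -0.23 to -0.70 with gProcessedSignal and -0.14 with normexp. All values with gProcessedSignal come from arrays scaled to their 75th percentile, so that signal column and scaling changed together. The second F11R probe (A_72_P238977) had 0.0375 with array weights, 0.18 among brothers only and -0.16 to 0.10 with each boar left out. In the litter contrast MPDZ had -0.00708 with gProcessedSignal, CLDN1 -0.13 with gMedianSignal scaled to the 75th percentile and the second F11R probe 0.00423 with array weights, and with each boar left out the first F11R probe had -0.10 to 0.0639 and the MAGI1 probe A_72_P231307 -0.0125 to 0.25. The 6 of 9 probes with P under 0.05 between the diets became 3 with gProcessedSignal (1019 of all 36982 probes), 2 in the brothers alone (2381 of all) and 0 in the other boars alone (359 of all), with 4 arrays each in limma, and 2 to 5 with each boar left out (2 without m_9598 or m_9528, 3 without m_9599 or m_9527). In the litter contrast 0 became 1 with array weights and 0 to 1 with each boar left out (1 without m_9527 or m_9528), and in the interaction 0 to 1 (1 without m_9502, with 5830 of all probes). Of all probes 2999 were under 0.05 between the litters, and 7540 with array weights and 1557 to 9519 with each boar left out (1557 without m_9599, 2302 without m_9527, 9519 without m_9528). The tight junction list had 2 between the diets, and 1 with gProcessedSignal, 4 with array weights, 1 in the brothers, 1 in the other boars and 1 to 4 with each boar left out (4 without m_9502, 1 without m_9527 or m_9528). For the litters it had 0, and 2 with array weights and 0 to 2 with each boar left out (2 without m_9528). The other junction list had 0 between the diets, and 1 with gProcessedSignal, 2 with array weights, 2 in the brothers and 0 to 2 with each boar left out (2 without m_9502), and for the litters 0, and 3 with array weights and 0 to 3 with each boar left out (3 without m_9528). Over all probes 689 under 0.05 between the diets became 5830 with array weights and 339 to 6155 with each boar left out, the highest without m_9502. After adjustment the 0 of all probes between the diets became 3 in the brothers alone, 1 with array weights and 0 to 1 with each boar left out (1 without m_9502), and the 0 between the litters 2 with gProcessedSignal, 2 with array weights, 3 with gMedianSignal scaled to the 75th percentile and 0 to 9 with each boar left out (9 without m_9528). Pairs of genes with an exact permutation p under 0.05 were 0, and 1 with gProcessedSignal, 3 with plain log2 values, which hold the diet difference, 2 among all probe pairs and 0 to 1 with each boar left out (1 without m_9599). After adjustment they were 0, and 1 with plain values. Pairs of probes of one gene with an exact permutation p under 0.05 were 3, and 0 with diet and litter means removed, where 16 orders are left, and 1 to 3 with each boar left out (1 without m_9499, m_9600 or m_9528). After adjustment they were 3, and 0 with diet and litter means removed and 0 to 1 with each boar left out (0 without m_9599, m_9499 or m_9527). CLDN1 with OCLN had an r of 0.00509 with gProcessedSignal and 0.339 with plain values, CLDN1 with MPDZ -0.310 with plain values and -0.00754 to 0.688 with each boar left out, CLDN1 with MAGI1 -0.228 with plain values, and MPDZ with OCLN -0.534 to 0.166 with each boar left out and -0.781 with gProcessedSignal (exact permutation p = 0.0486, adjusted p = 0.527), the 1 pair counted there. The causes were not tested. Signal over background limits the CLDN1 probe most.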
